A study of Mus musculus with 6 samples.

Results

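The genes described here are 36 genes of the amino acid response, the set of stress and nutrient genes that lie downstream of the transcription factor ATF4. They were taken by gene symbol from a list of known members, and all 36 are among the 23183 symbols of the count files. They fall into 4 roles. There are 9 enzymes of amino acid synthesis and folate metabolism, 7 amino acid transporters and 7 cytosolic tRNA synthetases. The other 13 are called factors and regulators here. They are transcription factors and stress regulators, together with Chac1 (an enzyme), Stc2 (a secreted glycoprotein) and Vldlr (a lipoprotein receptor). All 36 had enough counts to be tested, with between 139 and 23915 counts per gene and library.

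When a cell lacks an amino acid, uncharged tRNA activates the kinase GCN2, which phosphorylates the translation factor eIF2. Most translation then slows, while the mRNA of Atf4 is translated more. ATF4 protein, paired with a C/EBP factor, binds a composite sequence called the C/EBP-ATF response element (CARE) and raises transcription of genes that make, import and charge amino acids. Other eIF2 kinases, among them PERK of the endoplasmic reticulum, lead to the same output. T cells that have just been activated depend on this programme for uptake of amino acids and for serine and folate metabolism.

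There are 3 libraries of cells given sphingosylphosphorylcholine (SPC, a lysophospholipid) at 30 µM, and 3 control libraries of cells without it. Both groups began as naive CD4+ T cells from spleens of wild-type C57BL/6N mice. Both were stimulated with plate-bound anti-CD3e and soluble anti-CD28 under conditions that give T helper 9 (Th9) cells, namely IL-4, TGF-β1 and anti-IFN-γ, and RNA was taken on day 3. The medium held serum and 2-mercaptoethanol, a reducing agent that lets cells take up cysteine. The series describes 3 independent experiments, and the titles carry the numbers 1 to 3 in each group. In bulk RNA of such cultures, fewer cells that express a gene and less RNA per cell cannot be told apart.

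Total counts were 22715292 to 33049997 in SPC libraries and 22002050 to 30292992 in control libraries. The libraries numbered 3 were the shallowest of each group, with 22715292 counts (SPC) and 22002050 counts (control). Summed over 8 T cell marker genes, levels were 1790 to 2088 CPM (counts scaled to a common library size) in SPC libraries and 1756 to 1846 CPM in control libraries. Summed markers of B cells (7 genes) were at most 4.92 CPM with SPC and 3.64 CPM in control. Those of myeloid cells (10 genes) were at most 2.43 CPM with SPC and 2.32 CPM in control, and those of natural killer and CD8 T cells (6 genes) at most 4.13 CPM with SPC and 4.35 CPM in control. In each of these 3 lists 1 gene had no count in any library. Of the markers that could be tested, Cd5 of the T cell list rose with the replicate block described further on (263 to 277 CPM with SPC, 203 to 217 CPM in control). Adgre1 of the myeloid list, at a very low level, fell with it (0.153 to 0.217 CPM with SPC, 0.410 to 0.818 CPM in control). The other of the 2 tested myeloid markers, Cd68, was not called and was higher with SPC (1.53 to 2.09 CPM, against 1.09 to 1.47 CPM in control). Of the 8 T cell markers, 4 were higher with SPC in all 3 same-numbered pairs of libraries, where 21.8% of all tested genes were. Zap70 was lower in all 3 pairs (148 to 170 CPM with SPC, 174 to 184 CPM in control) and was not called. The part of these markers in the results was not tested.

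The CARE is shown first, because it is the sequence by which ATF4 is known to reach its target genes. Its core was searched as TGATGNAA, or TTNCATCA where it lies on the other strand, in windows of 300 bases, from 250 bases before to 50 bases after each RefSeq transcript start (GRCm38.p6, the assembly that mm10 names). Of the 36 genes, 31 have such a window. A match was found in 12 of these 31 genes (38.7%), against 3.97% of all 32851 windows of the table and 2.82% of the genes that were tested here and have a window. A match is a run of letters in the window and does not show that a factor binds there. A gene without a match may hold the core outside the window, which was not searched. Most of the matches, not all, are printed here, on the strand of the gene, 5′ to 3′, with the core in capitals.

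Atf3 (chr1:191183425-191183454, minus strand): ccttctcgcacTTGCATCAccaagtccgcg
Nupr1 (chr7:126625562-126625591, minus strand): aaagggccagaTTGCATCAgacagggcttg
Chac1 (chr2:119351038-119351067, plus strand): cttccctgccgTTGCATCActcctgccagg
Vldlr (chr19:27216809-27216838, plus strand): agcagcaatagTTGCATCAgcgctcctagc
Trib3 (chr2:152344028-152344057, minus strand): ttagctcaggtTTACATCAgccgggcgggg
Asns (chr6:7693214-7693243, minus strand): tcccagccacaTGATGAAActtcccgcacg
Pycr1 (chr11:120643833-120643862, minus strand): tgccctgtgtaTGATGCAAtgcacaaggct
Slc1a4 (chr11:20332699-20332728, minus strand): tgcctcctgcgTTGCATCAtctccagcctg
Gars (chr6:55037960-55037989, plus strand): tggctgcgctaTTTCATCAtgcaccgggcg
Iars (chr13:49682126-49682155, plus strand): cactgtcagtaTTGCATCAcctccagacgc

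The window of Slc7a11, which encodes the cystine importer xCT, held 2 matches. The upstream stretch of Slc7a11 (chr3:50443614-50443863, minus strand, the 250 bases before its start) is shown in full, because its pair of cores lies close together in opposite orientation.

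Slc7a11, upstream: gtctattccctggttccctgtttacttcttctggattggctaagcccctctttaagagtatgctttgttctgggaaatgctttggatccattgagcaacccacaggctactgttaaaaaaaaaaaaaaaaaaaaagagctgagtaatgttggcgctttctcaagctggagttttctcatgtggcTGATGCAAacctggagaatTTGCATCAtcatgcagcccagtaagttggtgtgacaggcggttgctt

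**Figure D1:**
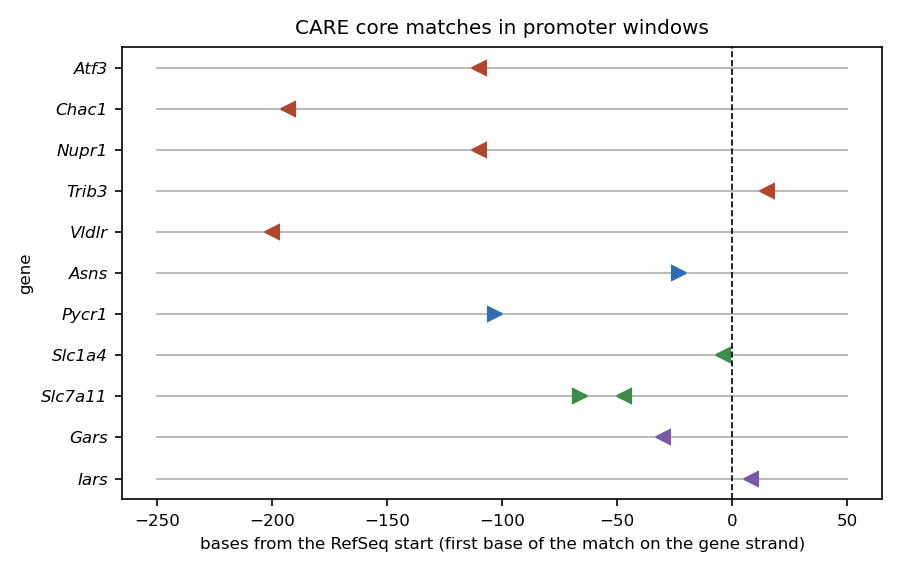
Position of the CARE core matches printed above in their promoter windows (y axis, genes), in bases from the RefSeq start (dashed line at 0). Right-pointing triangles are cores in the direction of the gene and left-pointing ones cores on the other strand; matches lay between positions -200 (Vldlr) and 15 (Trib3).

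The comparison of SPC with control cells asks how the lipid changes gene expression in Th9 cultures. For each of the amino acid response genes the ranges of the groups overlapped when the library number was left aside. In the test with group as the single term (edgeR quasi-likelihood test, Benjamini-Hochberg adjustment over all 12226 tested genes), none of the 36 genes was called at an adjusted p under 0.05, where 0.483% of all tested genes were. The smallest adjusted p was 0.331, for Slc1a4. An unadjusted p under 0.05 was reached by 2 of the 36 genes, Slc1a4 and Ppp1r15a, and by 1250 of the 12226 tested genes. DESeq2 called none of the 36 and 282 of all tested genes, and 2 of the 36 and 1138 of all tested genes had an unadjusted p under 0.05 there. Log2 fold changes (SPC over control) lay between -0.45 and 0.47 with a median of 0.04, 21 of them above 0 and 15 below, against a median of 0.00193 over all tested genes. No gene of the 36 had groups that did not overlap, whereas 16.5% of all tested genes did. Overlap takes no account of the library number, for which 41.7% of the 36 genes and 10.9% of all tested genes were called (described further on).

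**Figure D2:**
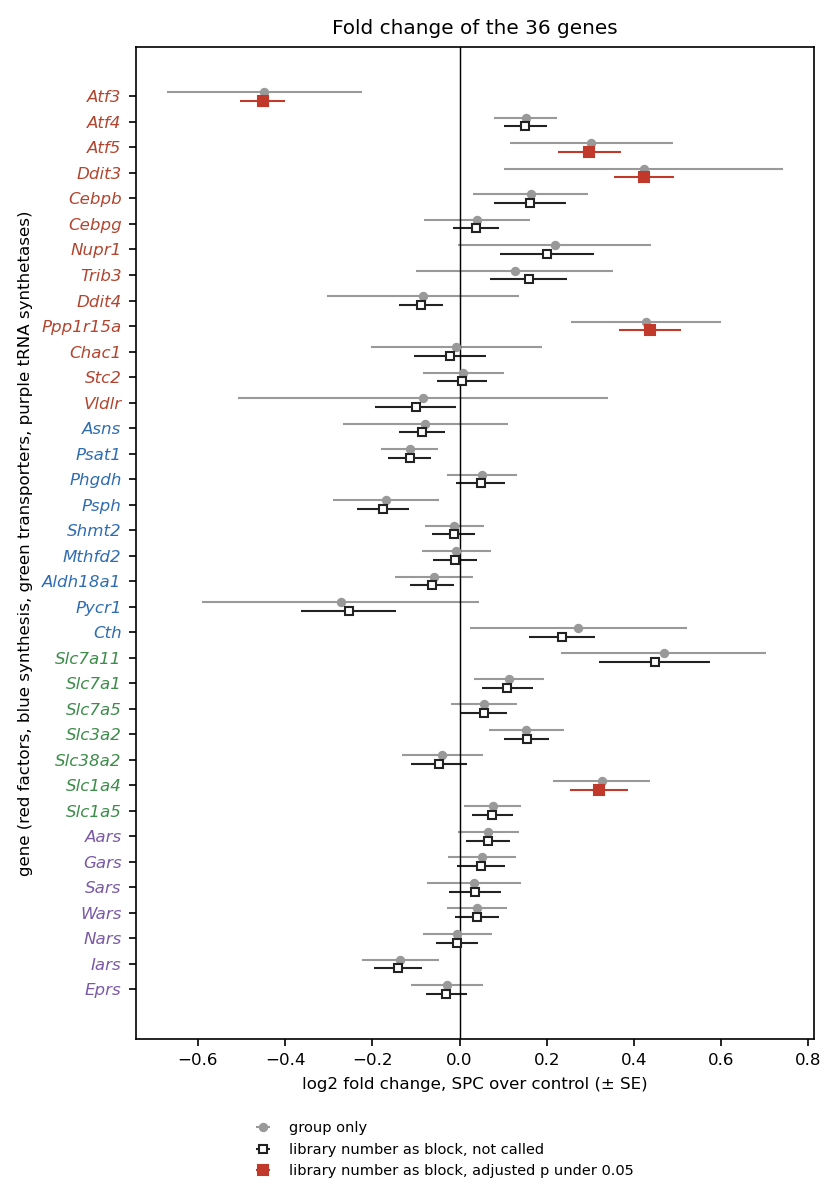
Log2 fold change of SPC over control (x axis) with its SE for each of the 36 genes (y axis, coloured by role), from the group-only test (grey circles) and with the library number as a block (squares, red where the adjusted p was under 0.05). The 5 red squares are Atf3 below 0 and Atf5, Ddit3, Ppp1r15a and Slc1a4 above it; both tests place each gene at nearly the same fold change.

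Same-numbered libraries of the groups deviated together, so the number was also used as a replicate block. With the block 5 of the 36 genes were called (13.9%), where 7.08% of all tested genes were. Atf5, Ddit3, Ppp1r15a and Slc1a4 rose with SPC (4 genes, where 4.02% of all tested genes rose) and Atf3 fell (1 gene, where 3.07% of all tested genes fell). In these paired libraries 10 of the 36 genes were higher with SPC in all 3 pairs (21.8% of all tested genes were) and 7 were lower in all 3 pairs (22.0% of all tested genes were). The blocked count depended on the pairs used. Without the libraries numbered 1 it was 9 higher and 3 lower, without those numbered 2 it was 3 higher and 1 lower, and without those numbered 3 it was 2 higher and 1 lower. The count over all tested genes moved with it, at 2112 of 12135 without number 1, 699 of 12223 without number 2 and 563 of 12289 without number 3.

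Among the transcription factors and regulators, Atf4 itself lies on chromosome 15 (80255184 to 80257541, plus strand, mm10). It had 583, 536 and 603 CPM in SPC libraries 1 to 3, against 497, 510 and 544 CPM in control libraries 1 to 3. Each SPC library was above the control library of its number, and the groups overlapped only through SPC library 2. Its log2 fold change of 0.15 ± 0.07 (SE) had an adjusted p of 0.544 in edgeR's group-only test and of 0.103 in the blocked one. The blocked adjusted p was 0.00529 without the libraries numbered 1, 0.227 without those numbered 2 and 0.379 without those numbered 3. ATF4 is controlled largely through translation of this mRNA, which RNA counts do not measure.

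Atf3 encodes a stress-induced factor of the same bZIP family and is a known target of ATF4. Its levels were 70.9, 92.0 and 123 CPM in SPC libraries 1 to 3, against 98.1, 127 and 165 CPM in control libraries 1 to 3. Every SPC library was below its partner by nearly the same factor, with pair differences of -0.47, -0.47 and -0.42 on the log2 scale, but the ranges of the groups overlapped. With the block Atf3 fell by 0.45 ± 0.05 on the log2 scale (adjusted p = 0.000569, against 0.563 without the block), and the call held when any number was left out. Its gene lies on chromosome 1 (191170296 to 191218039, minus strand), and it was the single gene of the 36 that was called lower with the block.

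Ddit3 encodes CHOP, a factor that ATF4 induces and that can lead to cell death. It had 28.8, 30.4 and 56.5 CPM in SPC libraries 1 to 3, against 20.4, 23.6 and 42.5 CPM in control libraries 1 to 3. The library numbered 3 was far above the other two of its group in both groups, and SPC was higher in each pair. With the block Ddit3 rose by 0.42 ± 0.07 on the log2 scale (adjusted p = 0.00393), against 0.42 ± 0.32 and an adjusted p of 0.738 without it. The group-only value was 0.044 without SPC library 3 and 0.81 without control library 3. On chromosome 10 (127290774 to 127296288, plus strand), 4.73% of its exonic bases also lie in an exon of a gene on the opposite strand, among them Mars.

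Ppp1r15a encodes GADD34, the subunit that directs a phosphatase to eIF2 and so ends the response. Its levels were 40.5, 41.7 and 54.6 CPM in SPC libraries 1 to 3, against 27.3, 32.0 and 42.5 CPM in control libraries 1 to 3. Only control library 3 reached the range of the SPC libraries. With the block it rose by 0.44 ± 0.07 on the log2 scale (adjusted p = 0.00423), against 0.43 ± 0.17 and an adjusted p of 0.429 without it. Like Ddit3, it was called in the blocked test when any number was left out.

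Atf5, a further bZIP factor that is controlled through translation, had 32.99, 28.4 and 44.2 CPM in SPC libraries 1 to 3, against 24.9, 25.3 and 35.6 CPM in control libraries 1 to 3. SPC was higher in each pair, least in pair 2. With the block it rose by 0.30 ± 0.07 on the log2 scale (adjusted p = 0.0331), and the call was lost without the libraries numbered 3 (adjusted p = 0.140). In all, 4.11% of its exonic bases lie in exons of Il4i1 and Nup62 on the opposite strand.

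**Figure D3:**
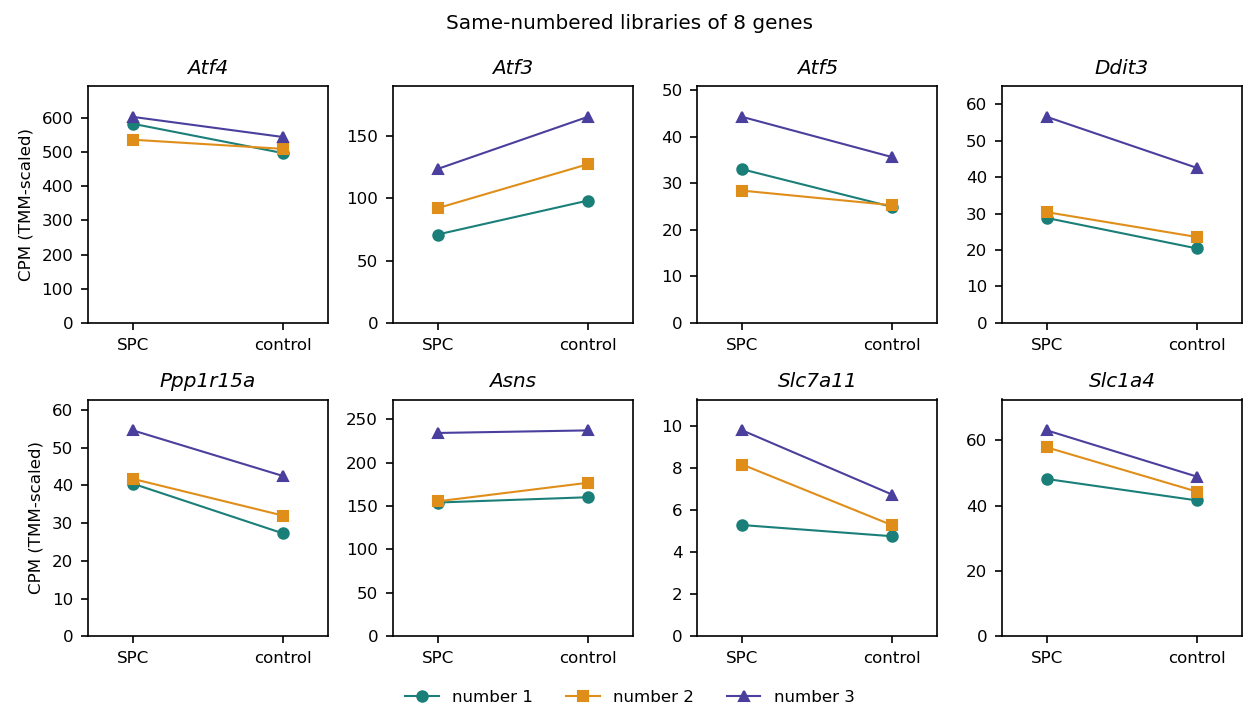
Levels of 8 genes in TMM-scaled CPM (y axes, each from 0) in SPC (left) and control (right) libraries, with lines joining same-numbered libraries. Atf3 is lower with SPC in every pair, Atf4, Atf5, Ddit3, Ppp1r15a, Slc7a11 and Slc1a4 are higher with SPC in every pair, and Asns differs by at most 0.19 (log2) within a pair.

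The other 8 genes of this role did not pass either test. Ddit4 encodes REDD1, an inhibitor of mTORC1, and after Atf4 it had the highest level per length in this role. It had 183, 241 and 318 CPM in SPC libraries 1 to 3, against 203, 248 and 337 CPM in control libraries 1 to 3. The difference was -0.08 ± 0.22 on the log2 scale (adjusted p = 0.946), and the spread between libraries of a group was far wider than the difference between groups. Trib3, a pseudokinase that restrains ATF4, averaged 58.9 ± 11.6 CPM with SPC and 54.0 ± 18.4 CPM in control (SD, n = 3 each). Chac1, which degrades glutathione, averaged 19.5 ± 5.31 CPM with SPC and 19.6 ± 3.67 CPM in control. The partners Cebpb and Cebpg had log2 fold changes of 0.16 ± 0.13 and 0.04 ± 0.12. Nupr1, a small stress-induced nuclear protein, had 0.22 ± 0.22, Stc2, a secreted glycoprotein, 0.01 ± 0.09, and Vldlr, a lipoprotein receptor, -0.08 ± 0.42. In Cebpb, 20.7% of the exonic bases lie in an exon of Tmem189 on the opposite strand.

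No enzyme of amino acid synthesis or folate metabolism passed either test of SPC (0 of 9 genes, median log2 fold change -0.06, between -0.27 and 0.27). In the edgeR test none of the 9 reached an unadjusted p under 0.05 (1250 of all 12226 tested genes did), and 4 did with the block (2615 of all 12226 did). In all 3 pairs 4 of the 9 were lower with SPC (Asns, Psat1, Psph and Pycr1), where 22.0% of all tested genes were. Cth was higher in all 3 pairs, where 21.8% of all tested genes were. Asns makes asparagine and is a classical ATF4 target. It had 154, 155 and 234 CPM in SPC libraries 1 to 3, against 160, 177 and 237 CPM in control libraries 1 to 3. Its libraries numbered 3 were the highest of each group, and the groups spanned nearly the same range. The difference of -0.08 ± 0.19 on the log2 scale had an adjusted p of 0.941 in the group-only test and of 0.401 in the blocked one.

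Serine is made from a glycolytic intermediate by Phgdh, Psat1 and Psph in turn, and Shmt2 and Mthfd2 then move its carbon into mitochondrial folate. Phgdh had 726, 608 and 681 CPM in SPC libraries 1 to 3, against 632, 634 and 680 CPM in control libraries 1 to 3. The SPC libraries lay on either side of the control range (log2 fold change 0.05 ± 0.08, adjusted p = 0.897). Shmt2 had 572, 513 and 557 CPM in SPC libraries 1 to 3, against 547, 544 and 565 CPM in control libraries 1 to 3 (log2 fold change -0.01 ± 0.07). Per length Phgdh was the highest of all 36 genes, at 355 ± 31.7 RPKM (reads per kilobase of transcript, scaled as CPM are) with SPC and 343 ± 14.4 RPKM in control. As 63.1% of the 50-base windows of its longest transcript also occur in transcripts of other annotated genes without a proper name, such as Gm13337, its count is uncertain.

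Psat1 and Psph were lower with SPC in all 3 pairs by small amounts. Psat1 averaged 518 ± 20.2 CPM with SPC and 561 ± 18.6 CPM in control (SD, n = 3 each), and with the block its log2 fold change was -0.11 ± 0.05 (adjusted p = 0.206). Psph averaged 82.8 ± 13.2 CPM with SPC and 93.0 ± 9.17 CPM in control, and with the block its value was -0.18 ± 0.06 (adjusted p = 0.114); 10.4% of its exonic bases lie in an exon of Cct6a on the opposite strand. Without the libraries numbered 1, the blocked adjusted p was 0.00505 for Psat1 and 0.0262 for Psph. Without those numbered 2 it was 0.824 and 0.614, and without those numbered 3 it was 0.419 and 0.173. Mthfd2 had a log2 fold change of -0.01 ± 0.08. The proline enzyme Aldh18a1 had -0.06 ± 0.09 and Pycr1, which acts after it, -0.27 ± 0.32.

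Cth, the enzyme that releases cysteine from cystathionine, had 57.6, 75.1 and 118 CPM in SPC libraries 1 to 3, against 56.7, 64.0 and 86.7 CPM in control libraries 1 to 3. The pairs differed in size, with log2 differences of 0.02, 0.23 and 0.44. The log2 fold change was 0.27 ± 0.25 (adjusted p = 0.803). With the block the adjusted p was 0.09997. That blocked adjusted p was 3.5e-05 without the libraries numbered 1, 0.147 without those numbered 2 and 0.589 without those numbered 3.

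Of the transporters, 6 of 7 had a log2 fold change above 0 (median 0.11, between -0.04 and 0.47). In all 3 pairs 4 of the 7 were higher with SPC, where 21.8% of all tested genes were. With the block 1 of the 7 was called, where 7.08% of all tested genes were. Slc1a4 encodes ASCT1, a carrier of alanine, serine and cysteine (chromosome 11, 20302180 to 20332713, minus strand). It had 48.1, 57.8 and 63.0 CPM in SPC libraries 1 to 3, against 41.6, 44.3 and 48.9 CPM in control libraries 1 to 3. The groups touched only where SPC library 1 lay below control library 3. With the block it rose by 0.32 ± 0.07 on the log2 scale (adjusted p = 0.0151). The call was lost without the libraries numbered 2 (adjusted p = 0.101) or 3 (0.106).

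In the group-only test Slc7a11 had the largest log2 fold change of the 36 genes, and it had the lowest level per length, at 0.839 ± 0.247 RPKM with SPC and 0.606 ± 0.111 RPKM in control (SD, n = 3 each). It had 5.29, 8.16 and 9.78 CPM in SPC libraries 1 to 3, against 4.75, 5.27 and 6.73 CPM in control libraries 1 to 3. SPC was higher in each pair, least in pair 1. The difference was 0.47 ± 0.23 on the log2 scale with an adjusted p of 0.567. In the blocked test it was 0.45 ± 0.13 with an adjusted p of 0.0641. That adjusted p was 0.00228 without the libraries numbered 1, 0.298 without those numbered 2 and 0.211 without those numbered 3.

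The more abundant transporters stayed within narrower limits. Slc7a5, which encodes LAT1, the large neutral amino acid carrier of activated T cells, had 726, 646 and 707 CPM in SPC libraries 1 to 3, against 636, 653 and 712 CPM in control libraries 1 to 3. Slc1a5, which encodes the glutamine carrier ASCT2, had 371, 377 and 399 CPM in SPC libraries 1 to 3, against 354, 361 and 374 CPM in control libraries 1 to 3. Their log2 fold changes were 0.06 ± 0.08 and 0.08 ± 0.07 (adjusted p = 0.876 and 0.788). Slc3a2, the heavy chain that pairs with LAT1 and xCT, averaged 282 ± 19.5 CPM with SPC and 254 ± 21.1 CPM in control, higher in all 3 pairs (0.15 ± 0.09, adjusted p = 0.621, and 0.108 with the block). Slc7a1, a carrier of arginine and lysine, had 0.11 ± 0.08, and Slc38a2, a carrier of small neutral amino acids, -0.04 ± 0.09. Without the libraries numbered 1 the blocked adjusted p was 5.5e-05 for Slc7a1 and 0.0155 for Slc3a2, where 2112 of all 12135 tested genes were called. Without those numbered 2 it was 0.638 and 0.297, and without those numbered 3 it was 0.874 and 0.293.

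The tRNA synthetases, which charge tRNA with amino acids, had the narrowest range of fold changes of the 4 roles. Their log2 fold changes lay between -0.14 (Iars) and 0.07 (Aars) with a median of 0.03, and none of the 7 was called with or without the block. With edgeR, 0 of the 7 had an unadjusted p under 0.05 in the group-only test and 1 had one with the block, where 1250 and 2615 of all 12226 tested genes did. Gars, the glycyl enzyme, had 614, 538 and 618 CPM in SPC libraries 1 to 3, against 543, 568 and 599 CPM in control libraries 1 to 3. Nars, the asparaginyl enzyme, had 546, 530 and 606 CPM in SPC libraries 1 to 3, against 527, 563 and 599 CPM in control libraries 1 to 3. In both the ranges of the groups overlapped almost wholly. Of the others, Iars, the isoleucyl enzyme, was lower with SPC in all 3 pairs (489 ± 54.2 CPM with SPC and 537 ± 19.4 CPM in control), and 8.61% of its 50-base windows also occur in the predicted gene Gm4849. Wars, the tryptophanyl enzyme, averaged 138 ± 4.92 CPM with SPC and 134 ± 5.96 CPM in control. Eprs, Sars and Aars had log2 fold changes of -0.03 ± 0.08, 0.03 ± 0.11 and 0.07 ± 0.07.

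Levels per length ranked Phgdh first in control cells, followed by Atf4 (284 ± 16.99 RPKM with SPC and 256 ± 12.1 RPKM in control), Shmt2 (239 ± 13.5 and 241 ± 4.98 RPKM, SPC and control) and Gars (248 ± 18.9 and 240 ± 11.8 RPKM, SPC and control). Shmt2 and Gars differed from each other in control by less than the SD of Shmt2. At the low end stood Slc7a11, Vldlr (2.62 ± 1.33 and 2.78 ± 1.37 RPKM, SPC and control), Pycr1 (2.69 ± 0.933 and 3.25 ± 1.40 RPKM) and Nupr1 (4.92 ± 1.499 and 4.23 ± 0.860 RPKM). The longest transcript of Aars runs into Exosc6, and its per-length level rests on that length.

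Other genes of the pathway were read from lists that, Slc7a11 in the NRF2 list apart, hold none of the 36 genes. With the block 4.02% of all tested genes rose and 3.07% fell. Of 17 tested kinases, subunits and regulators of eIF2, 1 fell with the block and none rose. It was Eif2ak2, which encodes the RNA-activated kinase PKR, with 19.4, 22.6 and 21.2 CPM in SPC libraries against 27.2, 28.4 and 27.6 CPM in control libraries (log2 fold change -0.40 ± 0.07 with the block, adjusted p = 0.00807). Of 22 endoplasmic reticulum chaperones and related genes 1 rose with the block, Herpud1, a gene of protein degradation there (0.25 ± 0.06, adjusted p = 0.0251), and none fell. None of the 13 other cytosolic tRNA synthetases, of the 17 mitochondrial ones or of the 23 other folate and amino acid enzymes was called in either test.

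Of 17 other amino acid transporters that were tested, 4 rose with the block and none fell, where 4.02% of all tested genes rose and 3.07% fell. None of the 17 was called in the group-only test. Slc43a1, a carrier of branched-chain amino acids, had 5.32, 5.44 and 5.61 CPM in SPC libraries against 2.67, 2.32 and 3.77 CPM in control libraries. Its groups did not overlap, and its log2 fold change was 0.93 ± 0.16 with the block (adjusted p = 0.00580, against 0.0965 without it). The other called ones were Slc7a3 (0.40 ± 0.08), Slc38a7 (0.42 ± 0.09) and Slc6a9 (0.27 with an adjusted p of 0.0491). Of 23 genes that sense amino acids for mTORC1 1 rose with the block, Sesn2, a leucine sensor and known ATF4 target (0.36 ± 0.06, adjusted p = 0.00582). Of 15 tested targets and regulators of NRF2, a factor that also drives Slc7a11, 1 fell with the block, Gsr, which encodes glutathione reductase (-0.41 ± 0.06, adjusted p = 0.00268).

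More of the amino acid response genes were called for the library number than for SPC. In the blocked fit, a test of the library number, added after the data were seen, called 15 of the 36 genes (41.7%), where 10.9% of all tested genes were called. These were 10 of 13 factors and regulators, 4 of 9 synthesis genes, 1 of 7 transporters and none of the 7 synthetases. The library numbered 3 was the highest of its group in both groups for 29 of the 36 genes, where this held for 24.7% of all tested genes. All 13 factors and regulators were among the 29. The median log2 difference of number 3 over number 1 was 0.23 for the 36 genes and 0.02 for all tested genes.

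**Figure D4:**
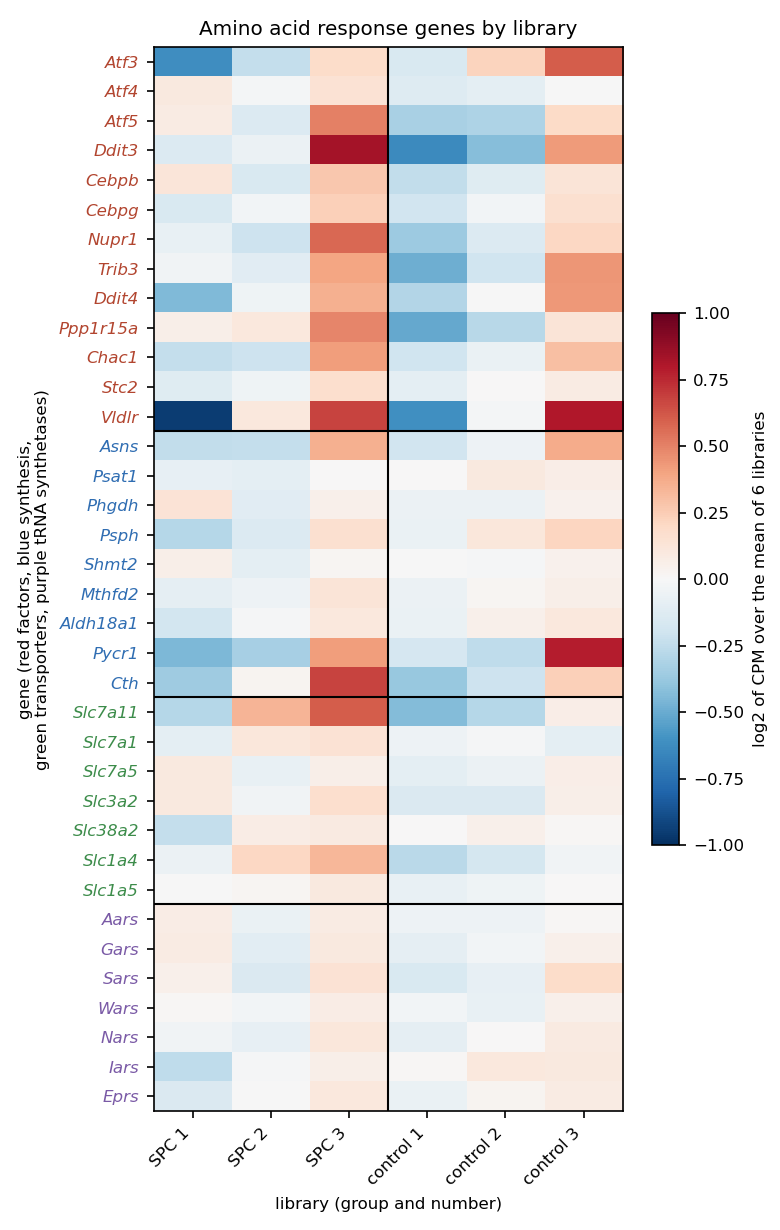
Level of each gene (rows, grouped by role) in each library (columns, SPC left and control right) as the log2 of CPM over the mean of the 6 libraries. The columns of SPC 3 and control 3 are the reddest, above all in the factors and regulators at the top, while the synthetases at the bottom are pale throughout.

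Vldlr had the largest such difference. It stood at 10.1, 21.1 and 31.4 CPM in SPC libraries 1 to 3 and at 12.8, 19.4 and 34.2 CPM in control libraries 1 to 3, a log2 difference of 1.52 between numbers 3 and 1 (adjusted p = 0.000143 for the number). Within numbers 1 to 3 its SPC and control values differed by -0.33, 0.12 and -0.12 on the log2 scale. Ddit3 differed by 1.01 (adjusted p = 0.000143), Pycr1 by 0.91 (0.00239), Cth by 0.83 (0.00131), Atf3 by 0.78 (0.000231), Ddit4 by 0.76 (0.000206) and Asns by 0.59 (0.000858). Atf4 mRNA differed by 0.09 (adjusted p = 0.285).

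The test of the number called 9 of the 36 genes without SPC library 3 (4.38% of all tested genes), 28 without SPC library 1 (26.7%) and 34 without control library 1 (47.3%). Leaving out any other library gave 14 to 16. The 2 libraries numbered 3 also had the lowest total counts of their groups. The part of depth in these values was not tested.

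**Figure D5:**
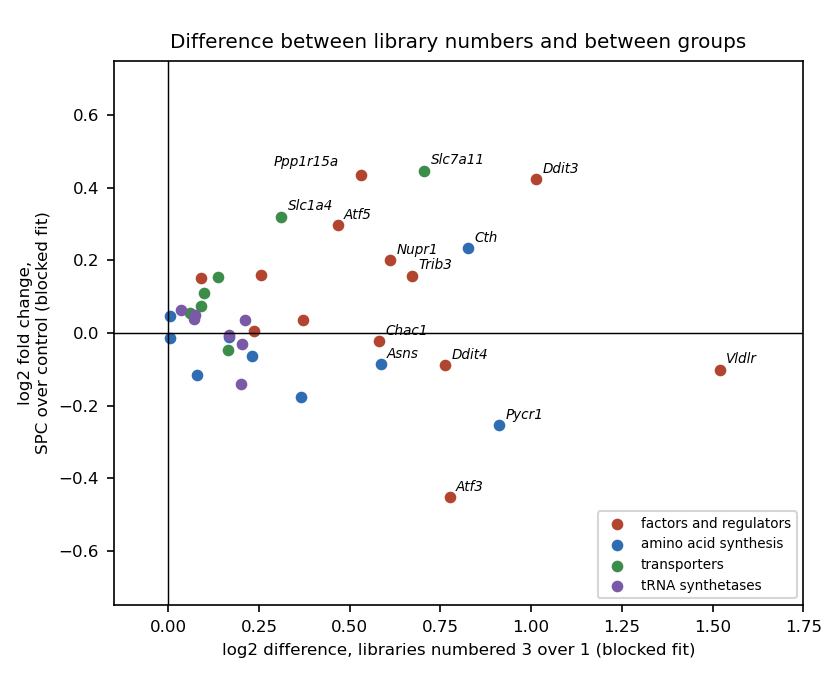
Log2 difference between libraries numbered 3 and 1 (x axis) against the log2 fold change of SPC over control (y axis), both from the blocked fit, for the 36 genes coloured by role. Points reach 1.52 along the x axis (Vldlr) and stay between -0.45 and 0.45 along the y axis.

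The matches to the CARE core were set beside both differences. Genes with a match had a median log2 fold change with SPC of 0.02 (12 genes, between -0.45 and 0.47) and those with a window but no match of 0.03 (19 genes, between -0.17 and 0.43). Of the 12, 2 were called with the block (Atf3 and Slc1a4), and of the 19, 3 were (Atf5, Ddit3 and Ppp1r15a), where 7.08% of all tested genes were. The library number was called for 8 of the 12 and for 6 of the 19, where 10.9% of all tested genes were. The median log2 differences of number 3 over number 1 were 0.60 for the 12 and 0.21 for the 19. These counts include windows that are not printed here, and no test was made of them. Genes without a match may still hold a core outside their windows.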

How the data were processed

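The authors deposited raw read counts per gene symbol for each of the 6 libraries. Per the submitters' processing notes TopHat and mm10 were used. The kit marks strand, per the labels' protocols. Those sources give no TopHat version, counting program, annotation or strand setting. The main test was that of edgeR 4.0.16, run in R 4.3.3 (quasi-likelihood F test, robust dispersion, TMM scaling, group as the single term) after filterByExpr (minimum count 10, minimum total 15), which kept 12226 genes, and a gene was called at an adjusted p (Benjamini-Hochberg) under 0.05. DESeq2 1.42.0 was an alternative. SEs were taken as the size of the log2 change over the root of F. Deviations of same-numbered libraries from their group means correlated at 0.413, 0.208 and 0.508 across genes, all above 0.1, so the number was taken to pair them, and blocked values are given where they change a call. Both fits were tested on simulated counts, where they recovered the genes made to change, and the blocked fit also called some genes that were not. The changes made there were larger than the log2 fold change of any amino acid response gene. Recovery of changes as small as those reported here was therefore not tested. CPM are TMM-scaled, and RPKM use the longest GENCODE M21 transcript. Promoter windows are from RefSeq (GRCm38.p6). Coordinates are 1-based. Per-library values are given for genes called in either fit, for Atf4, Ddit3, Asns and Slc7a11, for the highest 2 genes per role by length, and for further genes chosen after their values were seen. Of the other lists, up to 3 genes by blocked p could be named, and Slc6a9 was added after its values were seen. The genes and lists were chosen with earlier results of these data known. Some promoter sequence is not reported here.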

Additional observations from a re-analysis of the deposited data

How the results depend on the processing

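The count of members called stayed at 0 in each direction with RLE size factors, DESeq2, no filter on low counts, and without any 1 library or number, and with the replicate block it was 4 higher and 1 lower. The count over all tested genes was 59, 866 with the replicate block, 282 by DESeq2, 147 without a filter and 0 to 66 with a library or number left out. The blocked counts ranged over 2 to 9 (members higher), 1 to 3 (members lower) and 563 to 2112 (all tested genes) when a number was left out. The number test called 9 to 34 members and 544 to 5832 of all tested genes when a library was left out, against 15 and 1327, and 2059 of all tested genes without a filter. The direction of 20 members turned when libraries were left out, and none of these was called in either fit. Their log2 fold changes ranged as follows in the group-only fit: Aldh18a1 -0.13 to 0.014, Asns -0.31 to 0.11, Cebpg -0.078 to 0.14, Chac1 -0.25 to 0.15, Cth -0.058 to 0.48, Ddit4 -0.31 to 0.14, Eprs -0.091 to 0.036, Gars -0.012 to 0.12, Mthfd2 -0.076 to 0.034, Nars -0.064 to 0.047, Nupr1 -0.052 to 0.38, Phgdh -0.027 to 0.12, Pycr1 -0.58 to 0.13, Sars -0.048 to 0.15, Shmt2 -0.051 to 0.034, Slc38a2 -0.10 to 0.058, Slc7a5 -0.011 to 0.11, Stc2 -0.079 to 0.070, Trib3 -0.050 to 0.43, Vldlr -0.50 to 0.37. In the blocked fit those that turned ranged as follows: Chac1 -0.091 to 0.048, Gars -0.015 to 0.12, Mthfd2 -0.049 to 0.031, Nars -0.033 to 0.046, Phgdh -0.029 to 0.11, Sars -0.050 to 0.092, Shmt2 -0.053 to 0.034, Slc38a2 -0.11 to 0.050, Slc7a5 -0.012 to 0.10, Stc2 -0.036 to 0.043. The cause was not tested. With libraries left out, the group-only values of the genes called with the block ranged from -0.68 to -0.24 (Atf3), 0.11 to 0.49 (Atf5), 0.044 to 0.81 (Ddit3), 0.28 to 0.62 (Ppp1r15a) and 0.24 to 0.43 (Slc1a4), and that of Slc7a11 from 0.27 to 0.69. The median SE of a member was 0.101 on the log2 scale in the group-only fit and 0.056 in the blocked one.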

Other observations

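Among genes outside the 36, 3 that belong to the same biology had high levels in the libraries numbered 3 and were picked out after their values were seen. Their whole lists held few such genes. Library 3 was highest in both groups for 6 of 23 other folate and amino acid enzymes and 5 of 17 other amino acid transporters. It was so for 8 of 23 genes that sense amino acids for mTORC1, where this held for 24.7% of all tested genes. Aldh1l2, a mitochondrial folate enzyme, stood at 11.9, 22.3 and 40.4 CPM in SPC libraries 1 to 3 and at 11.3, 14.8 and 34.1 CPM in control libraries 1 to 3 (adjusted p = 0.000143 for the library number). Slc7a3, a carrier of basic amino acids, stood at 17.1, 17.2 and 30.6 CPM with SPC and at 12.2, 14.0 and 22.8 CPM in control (adjusted p = 0.000810). Sesn2 stood at 51.0, 54.0 and 73.1 CPM with SPC and at 39.5, 43.5 and 54.8 CPM in control (adjusted p = 0.00649). All 3 were higher with SPC in each pair, and the ranges of the groups overlapped.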
